A study of Homo sapiens with 7 samples.

Results

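Open chromatin was described at 10 genes of the astrocyte and oligodendrocyte lineages, GFAP, AQP4, S100B, ALDH1L1, SLC1A3, SLC1A2, OLIG1, OLIG2, SOX10 and PDGFRA, among 19974 protein-coding genes, in a culture labelled as neuronal. The 10 genes were chosen by name, and every open region that overlapped a gene body or its 50 kb on each side by at least 1 bp was taken. The cells were LUHMES, a human cell line of midbrain origin that carries a tetracycline-controlled v-myc gene and stops dividing when tetracycline is added, here with the genotype given as WT. They were differentiated for 6 days with tetracycline, dibutyryl cyclic AMP and the growth factor GDNF, and all groups shared this treatment. In the 4 stressed libraries the neurons had 8 h of 25 µM antimycin A, an inhibitor of respiratory complex III, with 10 µM oligomycin, an inhibitor of the ATP synthase. In the 3 vehicle libraries they had DMSO. The libraries came from differentiations numbered 6, 7, 8 and 9 (stressed) and 6, 7 and 8 (vehicle), described as independent batches, and all were of 1 cell line. ATAC-seq cuts accessible DNA with the Tn5 transposase, so a region called by the peak caller marks chromatin that was open in at least part of the culture. A region open in few cells and a region open weakly in all cells cannot be told apart in these bulk libraries.

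Astrocytes buffer the surroundings of neurons and take up glutamate through the transporters encoded by SLC1A3 and SLC1A2. GFAP encodes their intermediate filament, AQP4 their water channel, ALDH1L1 a folate enzyme and S100B a calcium-binding protein. The oligodendrocyte lineage is specified by the transcription factors OLIG2, OLIG1 and SOX10, and its precursors carry the growth factor receptor PDGFRA. OLIG2 also acts earlier, in progenitors that give rise to neurons, and SLC1A3 is active in radial glia, so neither gene marks glia alone.

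The deposited lists held 188516, 248900, 55533 and 53063 regions in stressed libraries 6, 7, 8 and 9, against 53398, 32828 and 159902 in vehicle libraries 6, 7 and 8. The lists therefore differed in length within both groups, and no source used here gives read totals. Each list was reduced to its 32828 regions with the largest fold enrichment, and the rank within this equal-size list, where 1 is the strongest region, was the unit of comparison. The median region was 916, 1450, 484 and 740 bp wide in the stressed lists and 475, 319 and 868 bp wide in the vehicle lists. A gene-end region, one within 1 kb of either end of a gene, was found at 14 of 15 pan-neuronal markers in each stressed library, against 12, 14 and 14 in the vehicle libraries. Of 16 dopaminergic markers, 9 had one in each stressed library, against 9, 8 and 9 in the vehicle libraries. Among the dopaminergic markers NR4A2, PITX3, FOXA1 and EN1 had one in all 7 libraries, and TH and SLC18A2, which encode the dopamine-synthesis enzyme and the vesicular transporter, had none in any equal-size list. In the deposited lists TH had one in 3 stressed and no vehicle libraries, and SLC18A2 in 4 stressed libraries and 1 vehicle library, so absence from an equal-size list does not mean that a gene end was closed.

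RefSeq lists more than 1 transcript start for several of the 10 genes, and the starts differed in the libraries that covered them. The following 300-base windows (RefSeq, GRCh38.p14, 250 bases before to 50 after a start, printed 5′ to 3′ along the gene's strand) are shown for this reason. The table used held 10 such windows for 4 of the 10 genes. The first SLC1A3 window, chr5:36596338-36596637 (plus strand), lies at the outer end of the gene and overlapped no region in any library. The other SLC1A3 windows, chr5:36606356-36606655 and chr5:36606704-36607003 (plus strand), lie inside the gene and were covered in all 7 libraries. The PDGFRA windows are the outer start, chr4:54229043-54229342, covered in stressed 7 alone among the equal-size lists, and an inner start, chr4:54233710-54234009, covered in all 7 (both plus strand). The AQP4 window, chr18:26862861-26863160 (minus strand), is an inner start covered in stressed 6, stressed 7 and vehicle 8. The ALDH1L1 window, chr3:126181137-126181436 (minus strand), is an inner start covered in stressed 6, 7 and 9 and vehicle 7 and 8. Capitals mark TGATGCAA in the outer and ACAAAG and then TGANTCA in the inner SLC1A3 windows, TGANTCA in the outer and GGGCGG in the inner PDGFRA window, TATAAA in the AQP4 window and CANNTG in the ALDH1L1 window.
SLC1A3 outer start: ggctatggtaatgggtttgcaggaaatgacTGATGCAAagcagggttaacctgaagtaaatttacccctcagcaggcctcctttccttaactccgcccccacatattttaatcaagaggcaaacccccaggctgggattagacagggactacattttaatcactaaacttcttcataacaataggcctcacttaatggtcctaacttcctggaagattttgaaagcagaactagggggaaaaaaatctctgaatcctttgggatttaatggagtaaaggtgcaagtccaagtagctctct
SLC1A3 inner start, first: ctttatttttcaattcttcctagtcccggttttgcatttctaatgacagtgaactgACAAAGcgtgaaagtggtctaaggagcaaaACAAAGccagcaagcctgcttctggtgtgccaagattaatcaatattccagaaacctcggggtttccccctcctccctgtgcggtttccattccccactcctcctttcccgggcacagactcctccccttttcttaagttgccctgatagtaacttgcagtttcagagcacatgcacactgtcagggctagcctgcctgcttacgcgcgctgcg
SLC1A3 inner start, second: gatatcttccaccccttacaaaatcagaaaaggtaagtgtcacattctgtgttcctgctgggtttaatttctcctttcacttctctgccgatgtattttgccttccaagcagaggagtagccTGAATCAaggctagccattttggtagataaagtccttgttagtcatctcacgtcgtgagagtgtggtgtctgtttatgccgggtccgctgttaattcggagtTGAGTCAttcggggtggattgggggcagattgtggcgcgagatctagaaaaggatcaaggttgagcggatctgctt
PDGFRA outer start: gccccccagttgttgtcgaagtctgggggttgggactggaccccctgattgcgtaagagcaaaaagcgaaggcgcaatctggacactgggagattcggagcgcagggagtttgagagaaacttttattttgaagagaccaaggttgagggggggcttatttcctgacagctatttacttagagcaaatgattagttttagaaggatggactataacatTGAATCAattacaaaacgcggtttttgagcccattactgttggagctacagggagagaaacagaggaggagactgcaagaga
PDGFRA inner start: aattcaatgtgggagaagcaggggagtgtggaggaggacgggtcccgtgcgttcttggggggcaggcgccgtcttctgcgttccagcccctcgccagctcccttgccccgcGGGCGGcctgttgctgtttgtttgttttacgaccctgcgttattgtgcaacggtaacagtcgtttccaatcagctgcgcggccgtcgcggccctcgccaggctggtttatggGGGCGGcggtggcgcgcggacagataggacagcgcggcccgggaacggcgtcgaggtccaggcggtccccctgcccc
AQP4 inner start: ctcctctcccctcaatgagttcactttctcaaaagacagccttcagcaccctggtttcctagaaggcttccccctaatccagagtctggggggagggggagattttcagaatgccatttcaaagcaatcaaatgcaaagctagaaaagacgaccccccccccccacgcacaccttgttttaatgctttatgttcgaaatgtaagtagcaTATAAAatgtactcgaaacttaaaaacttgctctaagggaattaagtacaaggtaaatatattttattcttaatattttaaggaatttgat
ALDH1L1 inner start: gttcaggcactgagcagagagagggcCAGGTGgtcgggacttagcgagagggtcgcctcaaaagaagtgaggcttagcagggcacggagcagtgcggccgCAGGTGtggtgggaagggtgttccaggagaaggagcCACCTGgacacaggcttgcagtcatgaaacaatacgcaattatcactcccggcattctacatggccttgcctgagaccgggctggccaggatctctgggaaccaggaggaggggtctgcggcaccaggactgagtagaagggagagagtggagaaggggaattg

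Motifs were searched on both strands. ACAAAG, a SOX-type hexamer, was present at positions 57 and 87 of the first inner SLC1A3 window, and 16.1% of 35116 RefSeq promoter windows of the same length held it. TGANTCA, a string looser than the AP-1 motif, was present at positions 123 (TGAATCA) and 225 (TGAGTCA) of the other inner SLC1A3 window. It was also present at position 219 (TGAATCA) of the outer PDGFRA window, and 7.71% of all windows held the looser string. The outer SLC1A3 window held TGATGCAA, the ATF4 composite motif, at position 31, against 0.866% of all windows, and no region overlapped it. The inner PDGFRA window held GGGCGG at positions 112 and 224, against 45.0% of all windows. TATAAA stood at position 210 of the AQP4 window, against 11.5% of all windows. CANNTG, the E-box, stood at positions 27, 101 and 137 of the ALDH1L1 window, against 68.7% of all windows. The capitals mark a single motif per window, and others of those searched were present unmarked. CANNTG was also in the printed AQP4, first inner SLC1A3 and both PDGFRA windows, and GGGCGG in the outer SLC1A3 window. The marked motifs are thus not particular to their windows. These matches are descriptions of letters and not of binding. By base composition the inner PDGFRA window had 66.7% G and C with 32 CpG dinucleotides, against 47% and 8 in its outer window, and the first inner SLC1A3 window had 50% with 9 CpG, against 43% and 1 in its outer window.

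**Figure D1:**
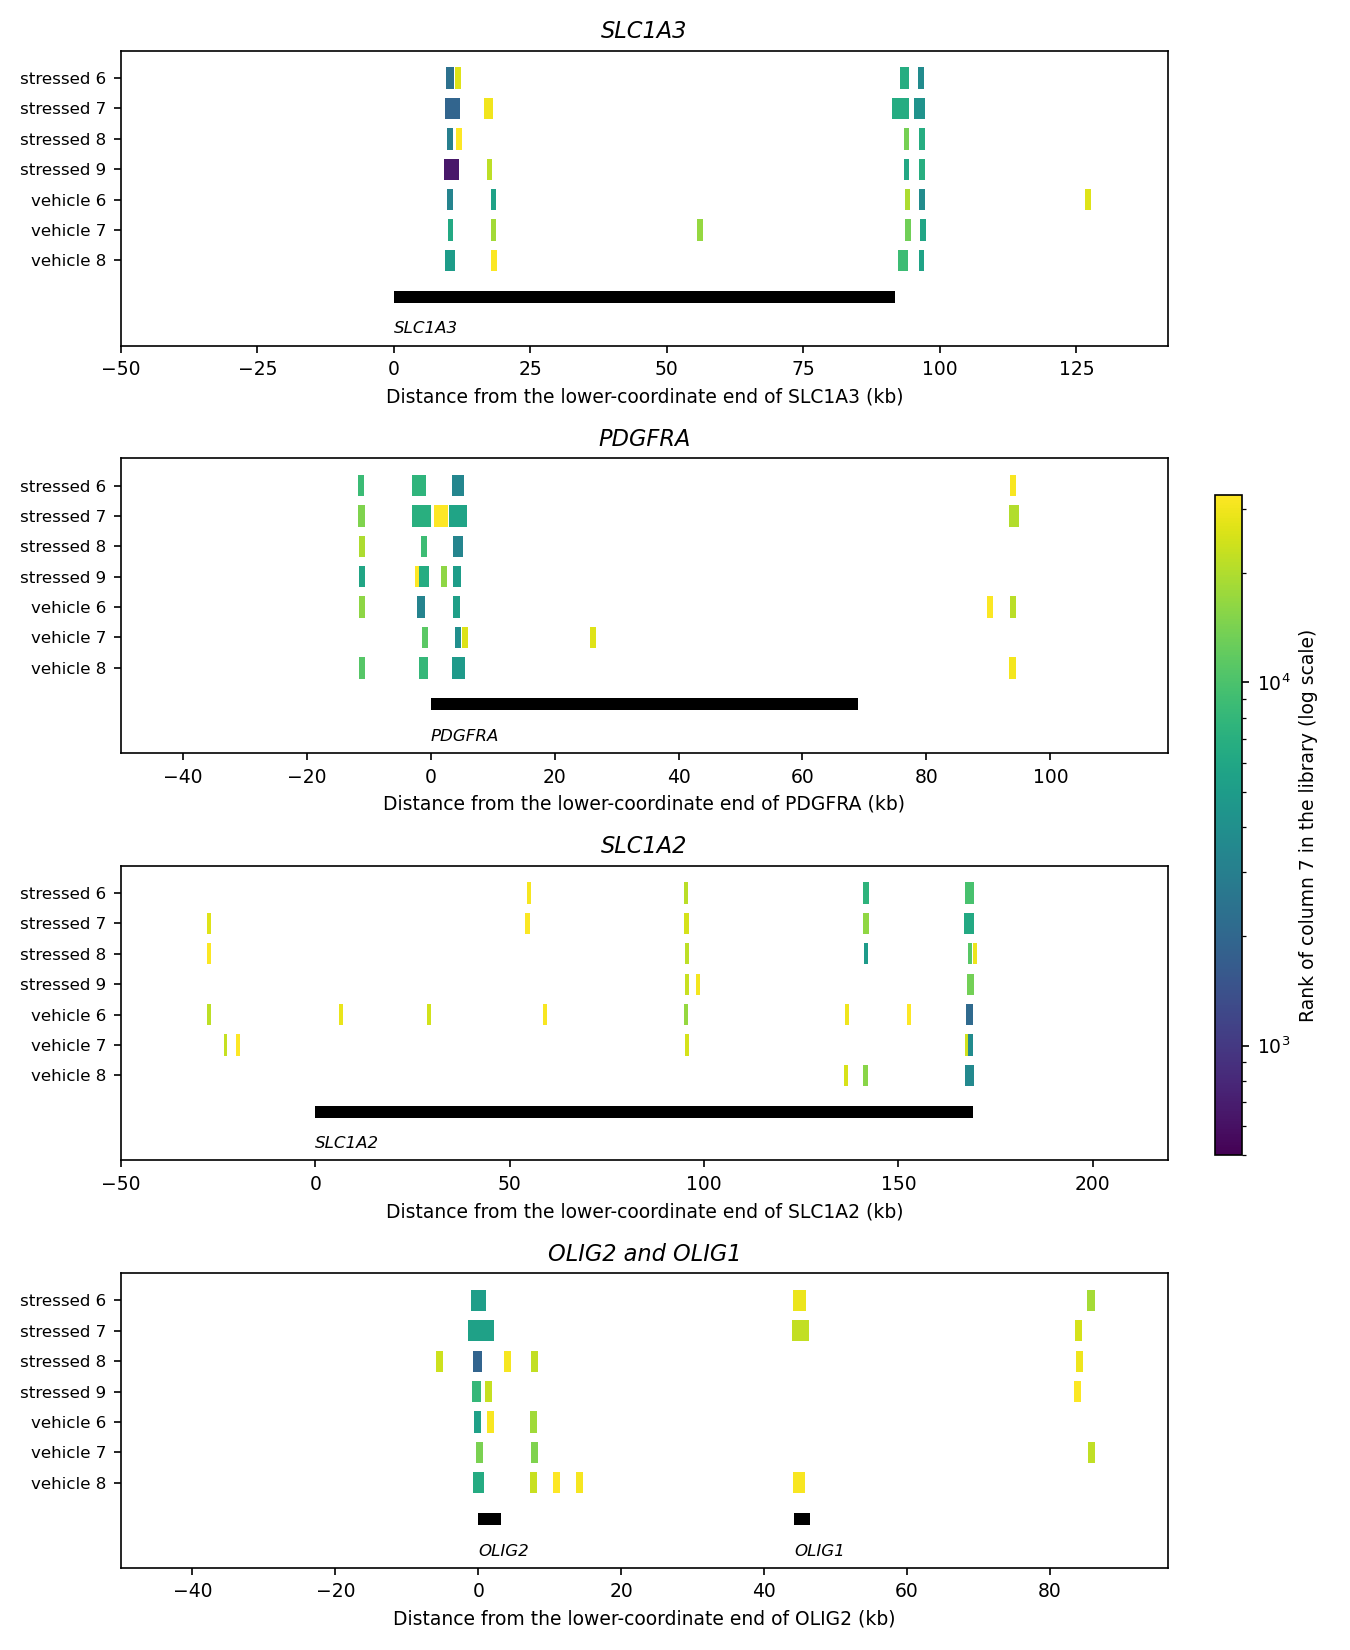
Regions of the equal-size lists at SLC1A3, PDGFRA, SLC1A2 and the OLIG2 and OLIG1 locus, one row per library with stressed libraries above vehicle libraries. The horizontal axis is the distance in kb from the lower-coordinate end of the named gene (black bar), the colour is the rank in the library's list on a log scale (dark is strong), and regions narrower than 1 kb are drawn 1 kb wide. In all 7 libraries dark regions lie about 10 kb inside SLC1A3 and about 5 kb inside PDGFRA, and not over the outer start of SLC1A3.

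Gene ends were open at 2 to 6 of the 10 glial genes, depending on the library. Both ends of each RefSeq gene were used, since the gene table gives no strand. In the equal-size lists 5, 6, 3 and 4 of the 10 genes had a gene-end region in the stressed libraries, against 3, 2 and 5 in the vehicle libraries, that is 4.5 ± 1.29 and 3.33 ± 1.53 (SD, n = 4 and 3). Over all protein-coding genes the share was 60.5% to 65.0% in stressed libraries and 54.0% to 58.9% in vehicle libraries. SLC1A2 and OLIG2 had a gene-end region in all 7 libraries, as did 46.5% of all protein-coding genes. GFAP, S100B, ALDH1L1 and SOX10 had none in any equal-size list, as did 29.6% of all protein-coding genes. AQP4, SLC1A3, OLIG1 and PDGFRA had one in a larger share of stressed than vehicle libraries, a pattern of 27.5% of the 14055 genes with any gene-end region. None of the 10 had one in a smaller share, a pattern of 6.48% of those genes. In the lists as deposited the numbers were 8, 8, 4 and 5 in stressed libraries and 3, 2 and 8 in vehicle libraries. The 3 longest lists gave 8 each, and among the shorter lists the number did not follow length.

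**Figure D2:**
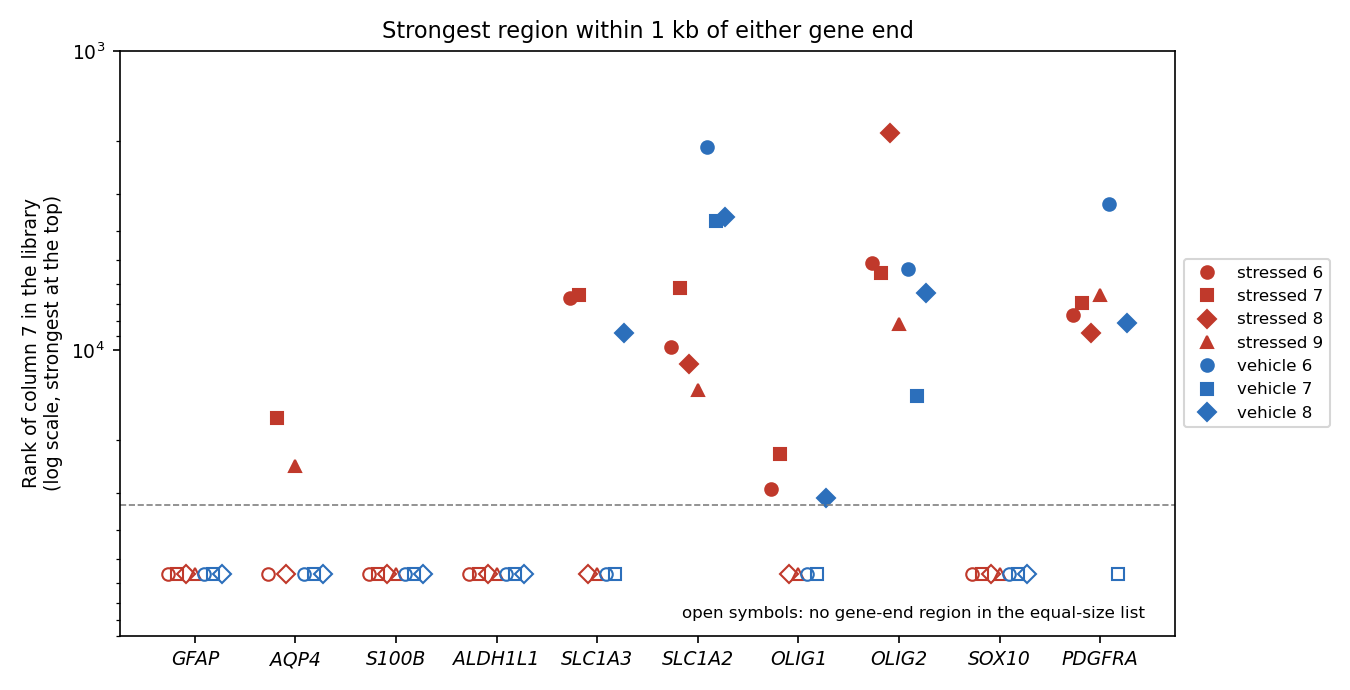
Rank of the strongest gene-end region of the 10 genes in each library's equal-size list, stressed libraries left of vehicle libraries. The vertical axis is the rank of column 7, the fold enrichment, on a log scale with the strongest at the top; filled points are libraries, and open points below the dashed line, the end of the list, are libraries with no such region. SLC1A2 is the gene whose stressed and vehicle points do not overlap, at 6211 to 13546 and 2093 to 3715.

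SLC1A2, the main glutamate transporter of mature astrocytes, had its gene-end region at the higher-coordinate end, chr11:35418098-35420624 over all libraries. It ranked 9778, 6211, 11098 and 13546 in the stressed libraries, against 2093, 3715 and 3585 in the vehicle libraries. Every stressed rank was weaker than every vehicle rank. The mean ranks were 10158 ± 3060 and 3131 ± 901 (SD, n = 4 and 3), a difference of 7027 places. This had p = 0.0571 by a two-sided exact permutation test over 35 label assignments, and adjusted p = 0.470 over the 14055 genes. Groups separated in this direction, with larger rank numbers in the stressed libraries, at 1.62% of genes, and in the other direction at 9.53%. None of the 14055 genes passed the adjusted threshold of 0.05, while 7.23% had an unadjusted p below it. An adjusted p below 0.05 would need most genes at the smallest possible exact permutation p, 0.0286. That no gene passed was thus nearly fixed by the number of libraries, and the same holds for the measures below.

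The SLC1A2 region was present in all stressed libraries, 2334, 2527, 1055 and 1641 bp wide, against 1911, 1185 and 2268 bp in the vehicle libraries. The median region of these lists was 916, 1450, 484 and 740 bp wide (stressed) and 475, 319 and 868 bp wide (vehicle). Width relative to the list was not tested. The fold enrichment of the SLC1A2 region as the caller gave it was 19.5, 17.7, 7.16 and 6.80 in the stressed libraries and 17.4, 10.5 and 30.4 in the vehicle libraries, values that belong to each library's own background. Among the 3 libraries with over 100000 deposited regions the mean rank was 7995 in stressed libraries 6 and 7, against 3585 in vehicle 8. Among the 4 shorter lists it was 12322 in stressed libraries 8 and 9, against 2904 in vehicle 6 and 7. Within differentiations 6, 7 and 8 the stressed rank was larger in each, by 5898 places on average, with p = 0.25 by an exact sign-flip test, the smallest that 3 pairs allow. The direction in these splits by list length and differentiation follows from the separation of all libraries and is no further evidence. The summits lay 552 to 1047 bp inside the gene in the stressed libraries and 955 to 1095 bp inside it in the vehicle libraries, at the edge of the 1 kb limit. Where only summits within 1 kb counted, the groups overlapped, because the limit removed the region from several libraries. Elsewhere in the gene, a region at chr11:35346136-35347316 ranked 21263, 25091, 21752 and 22936 in the stressed libraries, against 16978 and 25264 in vehicle 6 and 7, and was below the limit of the list in vehicle 8. These groups overlapped.

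SLC1A3, the glutamate transporter of radial glia and astrocytes, had a strong region over the inner starts printed above, chr5:36605858-36608734, the strongest of its window in every library but vehicle 7. It ranked 2339, 1941, 2998 and 655 in the stressed libraries, against 3281, 6284 and 4993 in the vehicle libraries. All stressed libraries placed it higher in the list than any vehicle library. Mean ranks were 1983 ± 987 and 4853 ± 1506 (SD, n = 4 and 3), a difference of -2869, with p = 0.0286 by the two-sided exact permutation test, the smallest it can give. Over the 62507 merged regions of all libraries the adjusted p was 0.724, and no merged region passed 0.05 after adjustment, while 3.95% had an unadjusted p below it. Groups separated in this direction, with smaller rank numbers in the stressed libraries, at 3.82% of merged regions, and in the other direction at 2.76%. The fold enrichment at this region was 36.8, 27.4, 12.1 and 18.4 in the stressed libraries and 14.7, 8.69 and 26.7 in the vehicle libraries. Mean ranks were 2140 and 4993 among the longer lists (stressed 6 and 7, vehicle 8) and 1827 and 4783 among the shorter ones (stressed 8 and 9, vehicle 6 and 7). Within differentiations the difference was -2427 (exact sign-flip p = 0.25, the smallest possible). Here too the direction in these splits follows from the separation of all libraries. The SLC1A3 inner-start region, like the AQP4 region described next, was singled out after its ranks were seen.

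At the far end of SLC1A3 lay a pair of regions that were present in all libraries. The one nearest the end, chr5:36687784-36691023, ranked 6706, 6533, 13626 and 6162 in the stressed libraries, against 19771, 13340 and 8743 in the vehicle libraries. It came within 1 kb of the gene end in stressed 6 and 7 and vehicle 8, where it was 1645, 3158 and 1840 bp wide. In the other 4 libraries it was 444 to 1013 bp wide and ended short of that limit, so the gene-end count of SLC1A3 reflects the extent of this region and not its presence. Stressed 8 fell inside the vehicle range, and the exact permutation p was 0.200 (n = 4 and 3). The other, chr5:36691925-36693945, ranked 3689, 4316, 6641 and 6903 in the stressed libraries and 3784, 5871 and 5642 in the vehicle libraries, which overlapped (p = 0.857 by the exact permutation test). The contrast between neighbouring regions of 1 gene was thus that the inner start stood apart by treatment and these did not. That the regions differ from one another in their response was not tested.

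AQP4, the water channel of astrocyte endfeet, had a merged region inside the gene, chr18:26862466-26864912, an interval as wide as the 2447 bp region of stressed 7. The inner start printed above lies in this interval, but was covered in stressed 6, stressed 7 and vehicle 8 only. In stressed 8 and 9 narrower regions, 535 and 668 bp wide, lay elsewhere in the interval. The ranks below thus compare regions that did not all lie at the same place. The merged region ranked 10789, 16873, 19542 and 18165 in the stressed libraries and 24066 in vehicle 8. It was in neither other vehicle list, equal-size or deposited. With absent libraries at 32829, mean ranks were 16342 ± 3859 and 29908 ± 5059 (SD, n = 4 and 3), a difference of -13566 with exact permutation p = 0.0286 and adjusted p = 0.724. Among the longer lists stressed 6 and 7 stood before vehicle 8, as the separation of all libraries requires. In equal-size lists of 16414 regions the separation was lost, since only stressed 6 then held the region. At the outer end of AQP4, 2 stressed libraries and no vehicle library had a region within 1 kb, at ranks 16873 (stressed 7, the inner region reaching that far) and 24373 (stressed 9). The deposited lists added stressed 6 at 40810 and vehicle 8 at 43310. In all, the AQP4 window held 2, 1, 1 and 3 regions in the stressed libraries, against 0, 0 and 1 in the vehicle libraries, with p = 0.171 by the exact permutation test. The number of regions separated the groups at none of the 10 genes, while the background was 3.42% of 18915 genes with more in stressed libraries and 0.941% with fewer. By this measure 3.47% of genes had an unadjusted exact permutation p below 0.05 and none passed after adjustment. The stressed mean was the larger one at 4 of the 10 genes, GFAP, AQP4, S100B and SOX10, against 54.6% of all genes.

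**Figure D3:**
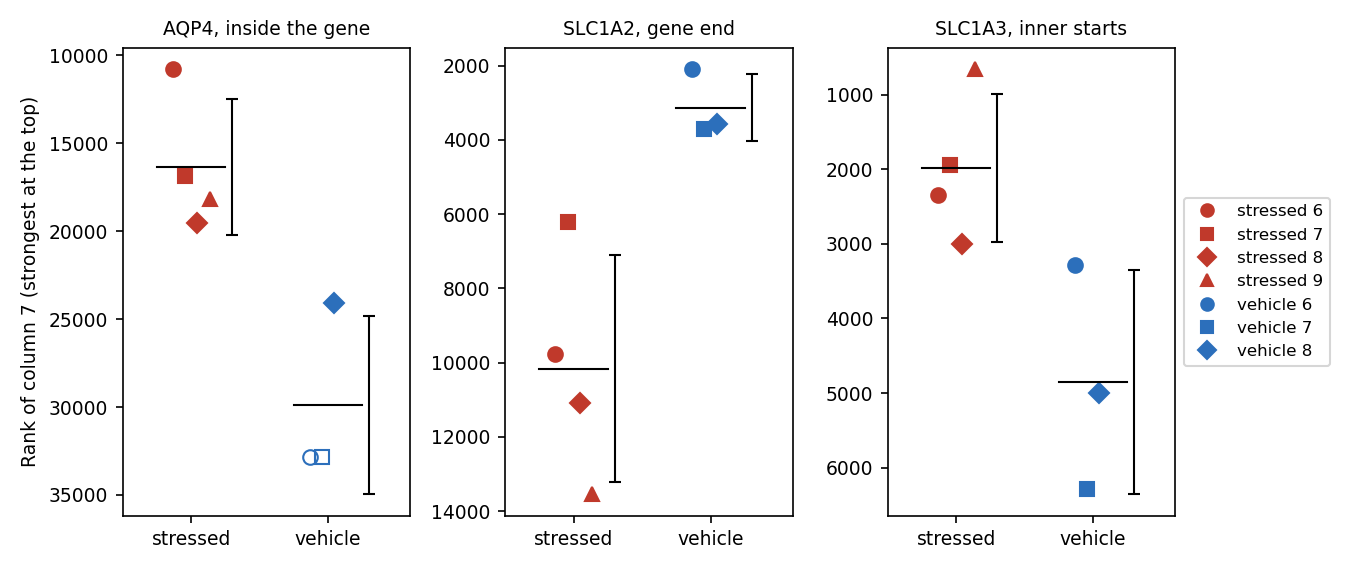
Ranks of column 7, the fold enrichment, in the equal-size lists for 3 merged regions, one panel each with its own axis, strongest at the top and stressed libraries left of vehicle libraries. Points are libraries, horizontal lines are means, bars span the mean ± SD (n = 4 and 3), and open points are libraries without the region, placed at 32829. The SLC1A3 inner-start and AQP4 regions have smaller ranks in all stressed libraries, and the SLC1A2 end region larger ones.

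GFAP and S100B had little open chromatin of their own. GFAP, the filament gene used most often to define astrocytes, had no region at its ends in any equal-size or deposited list. Its window held 1, 2, 1 and 1 regions in the stressed libraries and 0, 2 and 1 in the vehicle libraries, and all lay at ends of neighbouring genes. One, chr17:44947212-44948318, lay at the end of KIF18B, which encodes a mitotic kinesin, and was in stressed 6 and 7 and vehicle 7 and 8. The other, chr17:44899015-44900192, lay between EFTUD2 and DNAAF19 and was in stressed 7, 8 and 9 and vehicle 7. S100B likewise had no gene-end region in the equal-size lists. Its window held a region at the end of PRMT2, an arginine methyltransferase, in 6 libraries, and a distal region, chr21:46564178-46565335, in 6. Distal means over 1 kb from every protein-coding gene end. The distal region ranked 13248, 18606 and 16258 in stressed 6, 7 and 8 and was not in the deposited list of stressed 9, against 8081, 16672 and 10380 in the vehicle libraries.

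ALDH1L1 differed from these in having many weak distal regions: 6, 6, 1 and 5 in the stressed libraries, against 2, 5 and 7 in the vehicle libraries. Stressed 8 and vehicle 6 had the low counts, while stressed 9 and vehicle 7, whose deposited lists were shorter still, had 5 each. The region chr3:126083315-126084476, outside the gene, was in 6 libraries. It ranked 18933, 17386 and 27570 in stressed 6, 7 and 9, against 24843, 15912 and 31657 in the vehicle libraries. As frequent was chr3:126158237-126159919, inside the gene and of smaller median fold. It ranked 26817, 26355 and 16454 in stressed 6, 7 and 9, against 30763, 24515 and 20479 in the vehicle libraries. The groups overlapped at both. The inner start of ALDH1L1 printed above lay under a region, chr3:126179859-126181731 over all libraries. It ranked 32095, 21779 and 29956 in stressed 6, 7 and 9, against 30062 and 24945 in vehicle 7 and 8, among the weaker regions of each list that held it. Another inner start window, chr3:126180537-126180836, was covered in stressed 6 and 7 and vehicle 8 alone among the equal-size lists.

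OLIG2, the basic helix-loop-helix factor that specifies oligodendrocyte precursors and motor neurons, had a gene-end region in all 7 libraries, chr21:33024568-33028124. It ranked 5131, 5508, 1889 and 8169 in the stressed libraries, against 5376, 14227 and 6458 in the vehicle libraries. Stressed 8 was the strongest and vehicle 7 the weakest, and the other 5 lay together, so the groups overlapped (difference -3513, exact permutation p = 0.343, n = 4 and 3). It was 2063, 3557, 1284 and 1199 bp wide in the stressed libraries and 720, 313 and 1579 bp wide in the vehicle libraries. Its summits lay 165 to 289 bp before the lower-coordinate end in the stressed libraries and 119 to 165 bp before it in the vehicle libraries.

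OLIG1, its neighbour and paralogue, was far weaker at its ends. The region chr21:33069873-33072156 ranked 29024 and 22226 in stressed 6 and 7 and 31307 in vehicle 8, and no other equal-size list held it. These are the 3 libraries with the longest deposited lists. Between the genes a distal region, chr21:33033152-33033868, ranked 22403 in stressed 8 and 18005, 14715 and 22963 in the vehicle libraries. It was in all 7 deposited lists, so the other 3 stressed libraries held it below the limit (exact permutation p = 0.0857 on the rank, n = 4 and 3). The 50 kb windows of OLIG1 and OLIG2 overlap and share such regions, which were counted once.

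SOX10, the factor required for oligodendrocyte maturation, had no gene-end region in the equal-size lists, and none within 10 kb. Its window did hold a region inside POLR2F, a gene for an RNA polymerase subunit that overlaps SOX10, at chr22:37999131-38000843. It ranked 4850, 7703 and 10268 in stressed 6, 7 and 9, against 21687, 10425 and 6857 in the vehicle libraries. Stressed 8 held it at 37816 in its deposited list, past the limit. The summits of all 7 libraries lay between 38000154 and 38000162. Another region, chr22:37952732-37954229, lay at neighbouring ends of C22orf23 and POLR2F and not at SOX10. It was 1164, 1479, 855 and 1266 bp wide in the stressed libraries and 1053 bp wide in vehicle 8, and it was in no other equal-size list. The bases covered by regions in the SOX10 window, both of these included, were 2252, 3853, 1723 and 2093 bp in the stressed libraries, against 228, 162 and 1659 bp in the vehicle libraries. The groups did not overlap, with means of 2480 ± 942 and 683 ± 846 bp (SD, n = 4 and 3, exact permutation p = 0.0286, adjusted p = 0.550 over 18915 genes). Covered length separated the groups in this direction at 6.43% of genes and in the other at 0.0952%. By this measure 1.92% of genes had an unadjusted exact permutation p below 0.05 and none passed after adjustment, and 93.8% of genes had the larger mean in stressed libraries, while the median region was 484 to 1450 bp wide in the stressed lists and 319 to 868 bp wide in the vehicle lists. The value thus belongs to the window around SOX10, with regions at other genes, and the part of region width in it was not tested. The separation was lost in the lists as deposited, in lists of 16414 regions, with a q-value limit, with a 10 kb window and with ties ordered by position.

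PDGFRA, the receptor of oligodendrocyte precursors and of mesenchymal cells, had a pair of regions in all 7 libraries. Its inner start lay under chr4:54232245-54235116, which ranked 3430, 5800, 3375 and 5024 in the stressed libraries, against 5185, 3976 and 4814 in the vehicle libraries. The groups overlapped closely, with means of 4407 ± 1203 and 4658 ± 619 (SD, n = 4 and 3, exact permutation p = 0.743). Another region, before the outer start, chr4:54226223-54229404, ranked 7628, 6967, 8790 and 6545 in the stressed libraries, against 3256, 11293 and 8116 in the vehicle libraries, with p = 1.00 by the exact permutation test. In vehicle 7 this region did not reach within 1 kb of the gene end, and by the gene-end rule PDGFRA was therefore open in 6 libraries. With that library at 32829 the difference was -7251, and without it 1797, so the sign rested on vehicle 7. A further region, chr4:54217492-54218706, was in every library but vehicle 7, at ranks from 5831 to 19484 in stressed libraries and 10835 to 16142 in vehicle 6 and 8.

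Over all 10 windows the equal-size lists gave 54 merged regions, of which 9 lay at an end of one of the 10 genes, 4 at an end of another gene and 41 were distal. Of the 54, 7 were in all 7 libraries, against 22.9% of merged regions genome-wide, and 18 were in 1 library, against 38%. The 7 shared regions were 3 at SLC1A3, 2 at PDGFRA and 1 each at SLC1A2 and OLIG2. None of the 54 was in all stressed and no vehicle libraries, a pattern of 0.781% of merged regions, or in no stressed and all vehicle libraries, a pattern of 0.37%. The groups separated by rank at 3 of the 54: SLC1A3 and AQP4 with smaller rank numbers in the stressed libraries, against 3.82% of all merged regions, and SLC1A2 with larger ones, against 2.76%. A count of 3 among 54 is near this background and is no result about the glial genes. Distal regions in the windows numbered 21, 20, 17 and 19 in the stressed libraries and 22, 22 and 21 in the vehicle libraries. Per 1000 distal regions of each list that was 0.907 ± 0.0726 and 0.975 ± 0.0324 (SD, n = 4 and 3).

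**Figure D4:**
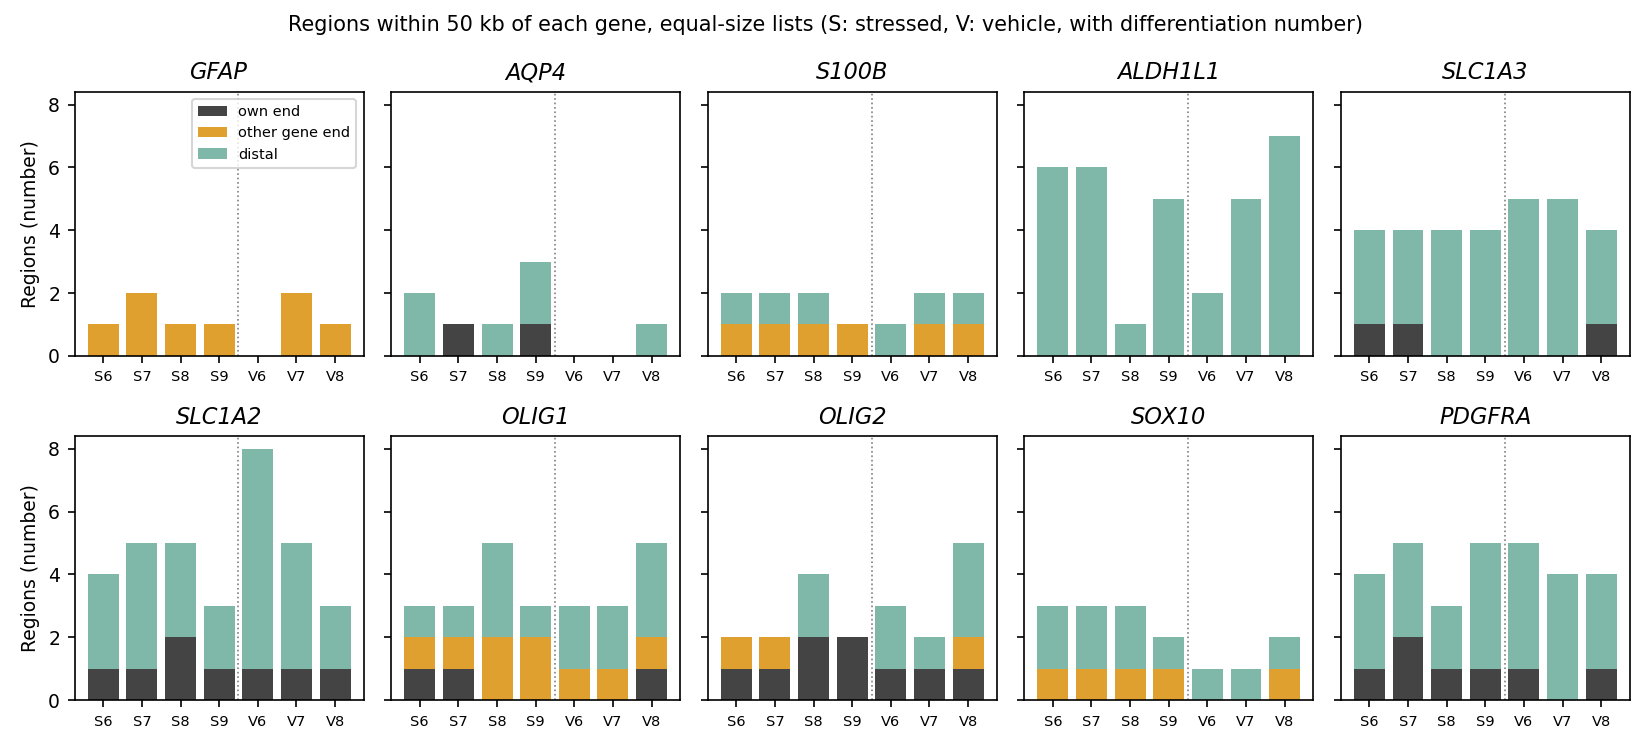
Number of regions in the equal-size lists within 50 kb of each of the 10 genes, split into regions at the gene's own ends, at ends of other genes and distal, with stressed libraries (S) left of vehicle libraries (V) by differentiation number. GFAP has regions at other genes only, and ALDH1L1 has distal regions only.

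Other markers of the glial lineages gave a similarly mixed picture. Over all protein-coding genes the share with a gene-end region was 60.5% to 65.0% in stressed libraries and 54.0% to 58.9% in vehicle libraries. A larger number in stressed libraries was thus the direction over all genes too, and whether a marker list differs from it was not tested. Of 16 further astrocyte markers, 8, 9, 8 and 10 had a gene-end region in the stressed libraries, against 7, 6 and 7 in the vehicle libraries. NFIA, a transcription factor that starts gliogenesis, GLUL, which encodes glutamine synthetase, ALDOC and NDRG2 had one in all 7, and FGFR3, NFIB, SPARCL1 and FABP7 in no equal-size list. The deposited lists held one at FGFR3 in 3 stressed libraries and 1 vehicle library. They held one at NFIB in 2 stressed libraries, at FABP7 in 1 and at SPARCL1 in none. Of 16 oligodendrocyte-lineage markers, 7, 7, 4 and 8 had one in the stressed libraries, against 4, 4 and 7 in the vehicle libraries. MYRF, a regulator of myelin genes, and UGT8, an enzyme of myelin lipid synthesis, had one in all 7. CSPG4, the precursor proteoglycan, and the myelin genes MOG, MAG and MOBP had none in any equal-size list. In the deposited lists CSPG4 had one in 3 stressed libraries and 1 vehicle library, MAG in 2 stressed libraries, and MOG and MOBP in 1 each. Of 12 microglia markers, 2, 2, 2 and 1 had one in the stressed libraries, against 0, 2 and 3 in the vehicle libraries, and AIF1, CSF1R, P2RY12 and TMEM119 had none in any equal-size list. Among the deposited lists TMEM119 had one in 4 stressed libraries and 1 vehicle library. CSF1R had one in 2 stressed libraries there, P2RY12 in 2 vehicle libraries and AIF1 in none. Of 10 neural progenitor markers, 7, 9, 7 and 8 had one in the stressed libraries, against 3, 4 and 7 in the vehicle libraries. PROM1 had one in all 7 equal-size lists and HES5 in none, although the deposited lists of 4 stressed libraries and 1 vehicle library held one at HES5. Of 7 mesenchymal markers, 4, 4, 3 and 4 had one in the stressed libraries, against 2, 1 and 2 in the vehicle libraries. PDGFRB, a receptor of pericytes and the paralogue of PDGFRA, was the marker with a gene-end region in all 4 stressed libraries, at ranks 25552, 16147, 18744 and 18443, and in no vehicle library, a pattern of 0.818% of genes. The opposite pattern, seen at 0.0213% of genes, was found at no marker and at none of the 10 genes. In the deposited lists 2 vehicle libraries held it too.

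**Figure D5:**
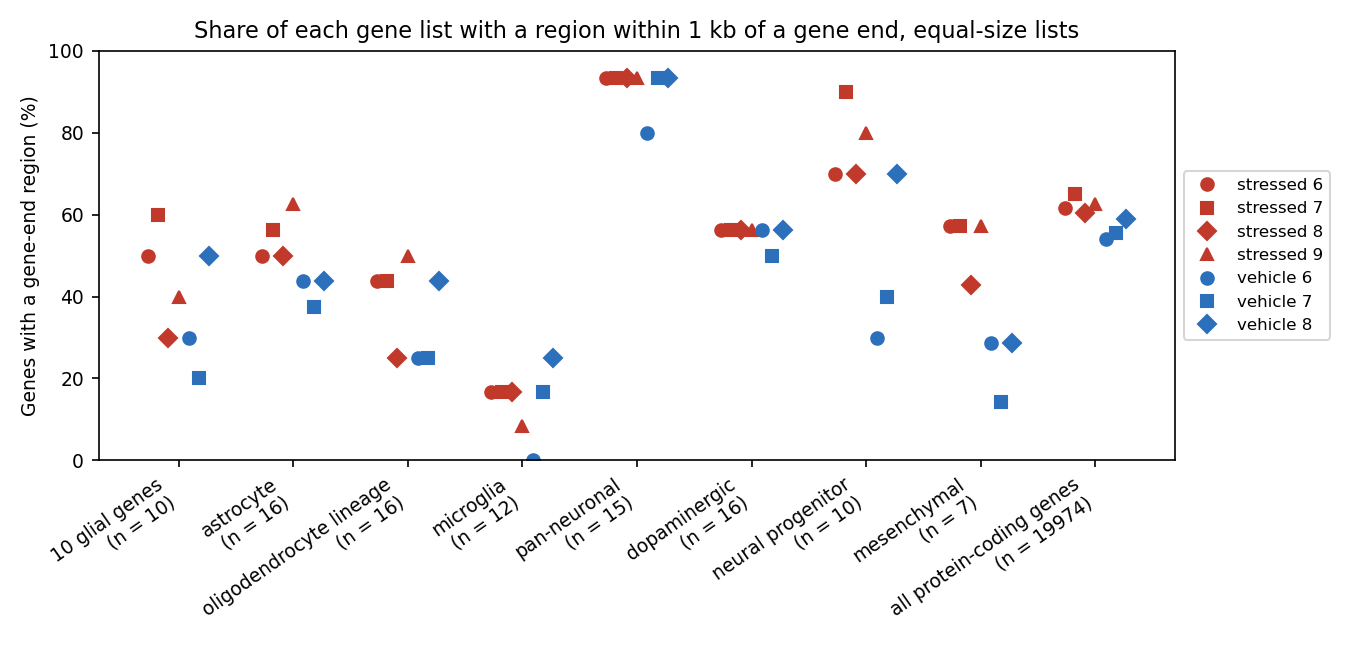
Share of each marker list with a gene-end region in the equal-size list, in percent, one point per library, with stressed libraries left of vehicle libraries. The pan-neuronal list lies at 80% to 93.3%, the 10 glial genes at 20% to 60% and the microglia list at 0% to 25%.

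The set of libraries with a gene-end region was compared with that of other genes for the 4 glial genes that had one in some libraries only. AQP4, with stressed 7 and 9, was among 100 genes with this set, 0.711% of those with any gene-end region, and NOTCH1, a receptor of neural progenitors, was the 1 marker among them. SLC1A3 and OLIG1 had the same set as each other, stressed 6 and 7 and vehicle 8, and were among 64 genes with it, 0.455%. These are the 3 longest deposited lists. PDGFRA, in every library but vehicle 7, was among 530 genes with its set, 3.77%, as were PRRX1, a mesenchymal transcription factor, and EN2, a midbrain one.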

How the data were processed

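ATAC-seq libraries of LUHMES neurons (4 stressed, 3 vehicle) were analysed from 1 peak list per library. The submitters' processing notes name FastQC, Bowtie2, Picard and hg38 with no versions, and peaks were called with MACS2 in each library separately, per the file headers. No source used here gives the caller's settings or any shift of reads for the Tn5 offset; both affect region number and width. Each deposited list gives, per peak, a score, a ratio (fold enrichment over the caller's background), and −log10 p and −log10 q, all computed by the authors' caller. These values belong to single peaks and were used to rank peaks within a list; the score was not used further. Read totals being unknown, no counting intervals are given.

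Regions on chromosomes 1 to 22 and X were kept (29 to 54 peaks per library left out). Equal-size lists held the 32828 regions of largest fold, with ties ordered by −log10 p, width and position. RefSeq genes (GRCh38.p14, the release of hg38) gave 19974 protein-coding genes. The difference of means was tested for every gene or merged region by a two-sided exact permutation test over 35 assignments of the library labels, with Benjamini-Hochberg adjustment. The smallest p is 0.0286, so a call here means that the groups did not overlap. An adjusted p below 0.05 would need most genes or merged regions at that smallest value, so its absence was nearly fixed by the design. Differentiation numbers 6, 7 and 8 are shared between groups, and the labels describe differentiations as batches; deviations of same-numbered libraries over 9284 genes correlated at -0.121, 0.0260 and -0.0132. p-values measure the spread between differentiations of 1 cell line. The genes, lists and tests were chosen with earlier results of these data known, and tests of merged regions were added after the ranks were seen. The named regions were the distal region found in most libraries of each window, with ties broken by median fold. Alternatives were lists as deposited, lists of 16414 regions, a −log10 q limit of 5, summits, 10 kb windows, 2500 bp gene ends, each library left out, the pairing and list-length strata. Tools were Python 3.11.15, numpy 2.4.6, pandas 2.3.3, scipy 1.17.1 and bedtools 2.31.1; the code was tested on simulated data.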

Additional observations from a re-analysis of the deposited data

Results flagged for a closer look

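In 6 of the 32 groups of 4 stressed libraries examined, 1 library stood apart from the other 3 by Dixon's criterion (the gap to the nearest library over the range); chance gives about 1 in 20, and for small whole numbers a single different count is enough. By number of regions in the equal-size list, stressed 7 had 2 at GFAP against 1 in the others, and stressed 9 had 1 at S100B against 2. Stressed 8 had 5 at OLIG1 against 3, and 4 at OLIG2 against 2, partly the same regions since the windows overlap. Stressed 9 had 2 at SOX10 against 3. By rank, the region at the far end of SLC1A3 that starts at 36687784 stood at 13626 in stressed 8, against 6162 to 6706 in the others. The part of list length and region width in these values was not tested.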

How the results depend on the processing

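Over all 10 genes and all settings the difference in region number reversed in 31 of 170 comparisons, among them 7 of 10 genes in deposited lists and 6 of 10 with −log10 q of at least 5, and that in covered length reversed in 7 of 160. No direction of region number is claimed from them; ordering by −log10 p changed no value. The number of genes whose covered length separated the groups, 1, became 0 in lists as deposited, in lists of 16414 regions, with −log10 q of at least 5, with 10 kb windows and with ties ordered by position, the last chosen after seeing the data. SOX10 was that gene, and its difference was 3754, 897.8, 2305, 0 and 1412 bp in that order. The gene-end rank call at SLC1A2 was lost with summits (0 calls, difference 4526), and with 2500 bp ends AQP4 joined it (2 calls). The AQP4 inner region lost its call in lists of 16414 regions (-1407). The difference in distal regions, -2.42, reversed to 53.1 in deposited lists and 17.3 with the q limit, and was -0.25 in lists of 16414 regions and -0.5 in the long lists alone, a stratum chosen after seeing the data. The number of SLC1A3 regions, -0.667, reversed to 4.25 in deposited lists and 2.5 with the q limit, both of which keep the unequal list lengths. Leaving out each library in turn gave 0 to 3 genes whose region number separated the groups, 1 to 4 by covered length and 1 to 1 by gene-end rank. The difference in genes with a gene-end region ran from 0.5 to 2 and that in distal regions from -3 to -1.67. Without vehicle 8 the region-number calls were AQP4, SLC1A3 and SOX10, and without stressed 9 SOX10. Without stressed 8 AQP4 joined SOX10 by covered length (2 calls), and without vehicle 8 there were 4 such calls. Without vehicle 7 the PDGFRA gene-end difference of -7251 reversed to 1797 (range -12990 to 1797). Leaving out a library makes separation easier by construction. With the replicate block (pairs 6, 7 and 8) the difference in genes was 1.33 and in distal regions -2.33; no direction changed, and since p cannot go below 0.25 no call is possible under it. Depth is unknown, so a region missing from a short list cannot be read as closed chromatin.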
